A study of Mus musculus with 4 samples.

Results

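The alpha-1 subunit is the pore and voltage sensor of a voltage-gated calcium channel, and 8 genes of this family were followed through the differentiation of adult-born granule cells (aGCs). They are Cacna1a, Cacna1b, Cacna1c, Cacna1d, Cacna1e, Cacna1g, Cacna1h and Cacna1i, taken by name from the count matrices, where they are 8 of 45706 features. Each gene was measured in CPM, the number of its UMIs (unique molecular identifiers, 1 per captured transcript) in every 1000000 UMIs of the same nuclei. Values were computed for every cluster and library.

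Mice carrying a tamoxifen-inducible Cre and the conditional CAG-floxStop-Sun1/sfGFP reporter received tamoxifen at 6 to 8 weeks of age, which tagged the nuclear envelope of radial glia-like cells (RGLs) and their progeny. Nuclei with GFP were sorted from dentate gyri 1, 2, 4 or 8 weeks later (w1, w2, w4 and w8), and each week is 1 library from a pool of 4 mice of both sexes. All 4 groups carry both alleles and received tamoxifen, and they differ in the time since induction and also in the pool of mice and the library. Glial progeny are tagged as well. The authors' 13 clusters were used: astrocytes (Astro), RGL, neural progenitor cells (NPC), neuroblasts (NB1 and NB2), immature (GCimm1 and GCimm2), young (GCyoung) and mature granule cells (GCmat1 and GCmat2), oligodendrocyte precursors (OPC), oligodendrocytes (Oligo) and Peri.

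In these channels, calcium entry on depolarization drives transmitter release, gene transcription and firing patterns. Cacna1c and Cacna1d encode the L-type channels Cav1.2 and Cav1.3, which couple activity to transcription. Cacna1a, Cacna1b and Cacna1e encode the P/Q-type, N-type and R-type channels (Cav2.1, Cav2.2 and Cav2.3), of which Cav2.1 and Cav2.2 are the main channels of presynaptic terminals. Cacna1g, Cacna1h and Cacna1i encode the low-voltage-activated T-type channels (Cav3.1, Cav3.2 and Cav3.3), which open near rest, and T-type currents are a known feature of immature granule cells.

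The genes differ widely in size. In GRCm38, Cacna1c spans 609 kb on the minus strand of chromosome 6 (118587240 to 119196418), Cacna1e 494 kb on chromosome 1 (154390731 to 154884501, minus) and Cacna1d 452 kb on chromosome 14 (30039939 to 30491455, minus). Cacna1a spans 252 kb on chromosome 8 (84388440 to 84640246, plus) and Cacna1b 159 kb on chromosome 2 (24603887 to 24763152, minus). The T-type genes are shorter, with 65.8 kb for Cacna1g on chromosome 11 (94408391 to 94474198, minus), 59.5 kb for Cacna1h on chromosome 17 (25374285 to 25433783, minus) and 111 kb for Cacna1i on chromosome 15 (80287238 to 80398279, plus). Intronic reads were counted, so a longer gene can give more UMIs, and levels are compared between genes only per kilobase of span. Cacna1c and Cacna1d each overlap 1 annotated gene on the same strand, and reads shared with such a gene were not resolved here.

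RefSeq promoter entries (GRCm38.p6) existed for 5 of the 8 genes, and the entries of Cacna1a, Cacna1g and Cacna1h were not in the table. The 250 bases before the start are shown for Cacna1b, Cacna1c and Cacna1d, where they touch no annotated exon. The 1 other such window, of Cacna1i, held none of the motifs searched. Capitals mark matches to CAGCTG or CAGATG, E-box sequences bound by proneural factors, or to GGGCGG, the core of the Sp1 motif, on either strand.
Cacna1b, chr2:24763153-24763402, minus strand: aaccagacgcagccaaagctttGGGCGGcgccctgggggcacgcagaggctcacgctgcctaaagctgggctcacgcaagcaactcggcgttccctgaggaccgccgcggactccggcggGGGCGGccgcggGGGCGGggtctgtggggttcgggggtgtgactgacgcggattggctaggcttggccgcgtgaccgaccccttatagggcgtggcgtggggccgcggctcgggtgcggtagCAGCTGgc
Cacna1d, chr14:30353487-30353736, minus strand: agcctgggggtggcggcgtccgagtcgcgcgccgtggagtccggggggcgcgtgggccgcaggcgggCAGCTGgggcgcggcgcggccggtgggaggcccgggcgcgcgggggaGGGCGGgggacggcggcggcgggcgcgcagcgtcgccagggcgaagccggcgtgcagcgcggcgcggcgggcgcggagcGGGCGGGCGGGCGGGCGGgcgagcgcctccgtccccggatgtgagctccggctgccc
Cacna1c, chr6:118757975-118758224, minus strand: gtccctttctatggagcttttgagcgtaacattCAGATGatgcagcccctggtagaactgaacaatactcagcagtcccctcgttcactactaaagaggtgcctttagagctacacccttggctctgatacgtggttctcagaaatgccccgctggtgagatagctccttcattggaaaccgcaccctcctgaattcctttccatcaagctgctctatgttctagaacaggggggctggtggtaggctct
The Cacna1b window held 1 CAGCTG and 3 GGGCGG, the Cacna1d window 1 CAGCTG and 5 GGGCGG, most of them overlapping, and the Cacna1c window 1 CAGATG. Over 32851 mouse promoter windows of the same length, 13.001% held CAGCTG, 14.4% held CAGATG or its complement CATCTG, and 32.7% held GGGCGG or CCGCCC. TGACGTCA, the cyclic AMP response element, was in none of the 8 windows of the family and in 1.55% of all windows. The GC content was 72% for Cacna1b, 86.4% for this Cacna1d start, which lies 138 kb inside the annotated gene, and 50.4% for this Cacna1c start, 438 kb inside it, against a median of 52.4% over all windows. Windows that touch an annotated exon are not shown. Of these, the Cacna1c start 0.009 kb from the annotated 5' end held none of the motifs (51.6% GC). The Cacna1c start at 87.9 kb held 6 GGGCGG and 1 CATCTG (82.8% GC). The Cacna1d start at 0.299 kb held neither E-box sequence nor GGGCGG (39.6% GC). The counts here are per gene, so they do not show which start was used.

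Summed over the family, the alpha-1 genes took 636 CPM in RGL (610 to 670 across 4 libraries) and 730 in NPC (696 to 773 across 3). NB1 had 2862 (2610 to 2946 across 3 libraries). The summed level was highest in GCimm2, at 4993 (4986 to 5283 across 3 libraries), and was 4115 in GCmat1 (4041 to 4210 across 3). No library of NB1 or a later neuronal cluster overlapped any library of RGL or NPC in this sum. Oligodendrocytes had the lowest, 150 CPM (93.8 to 195 across 3 libraries).

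**Figure D1:**
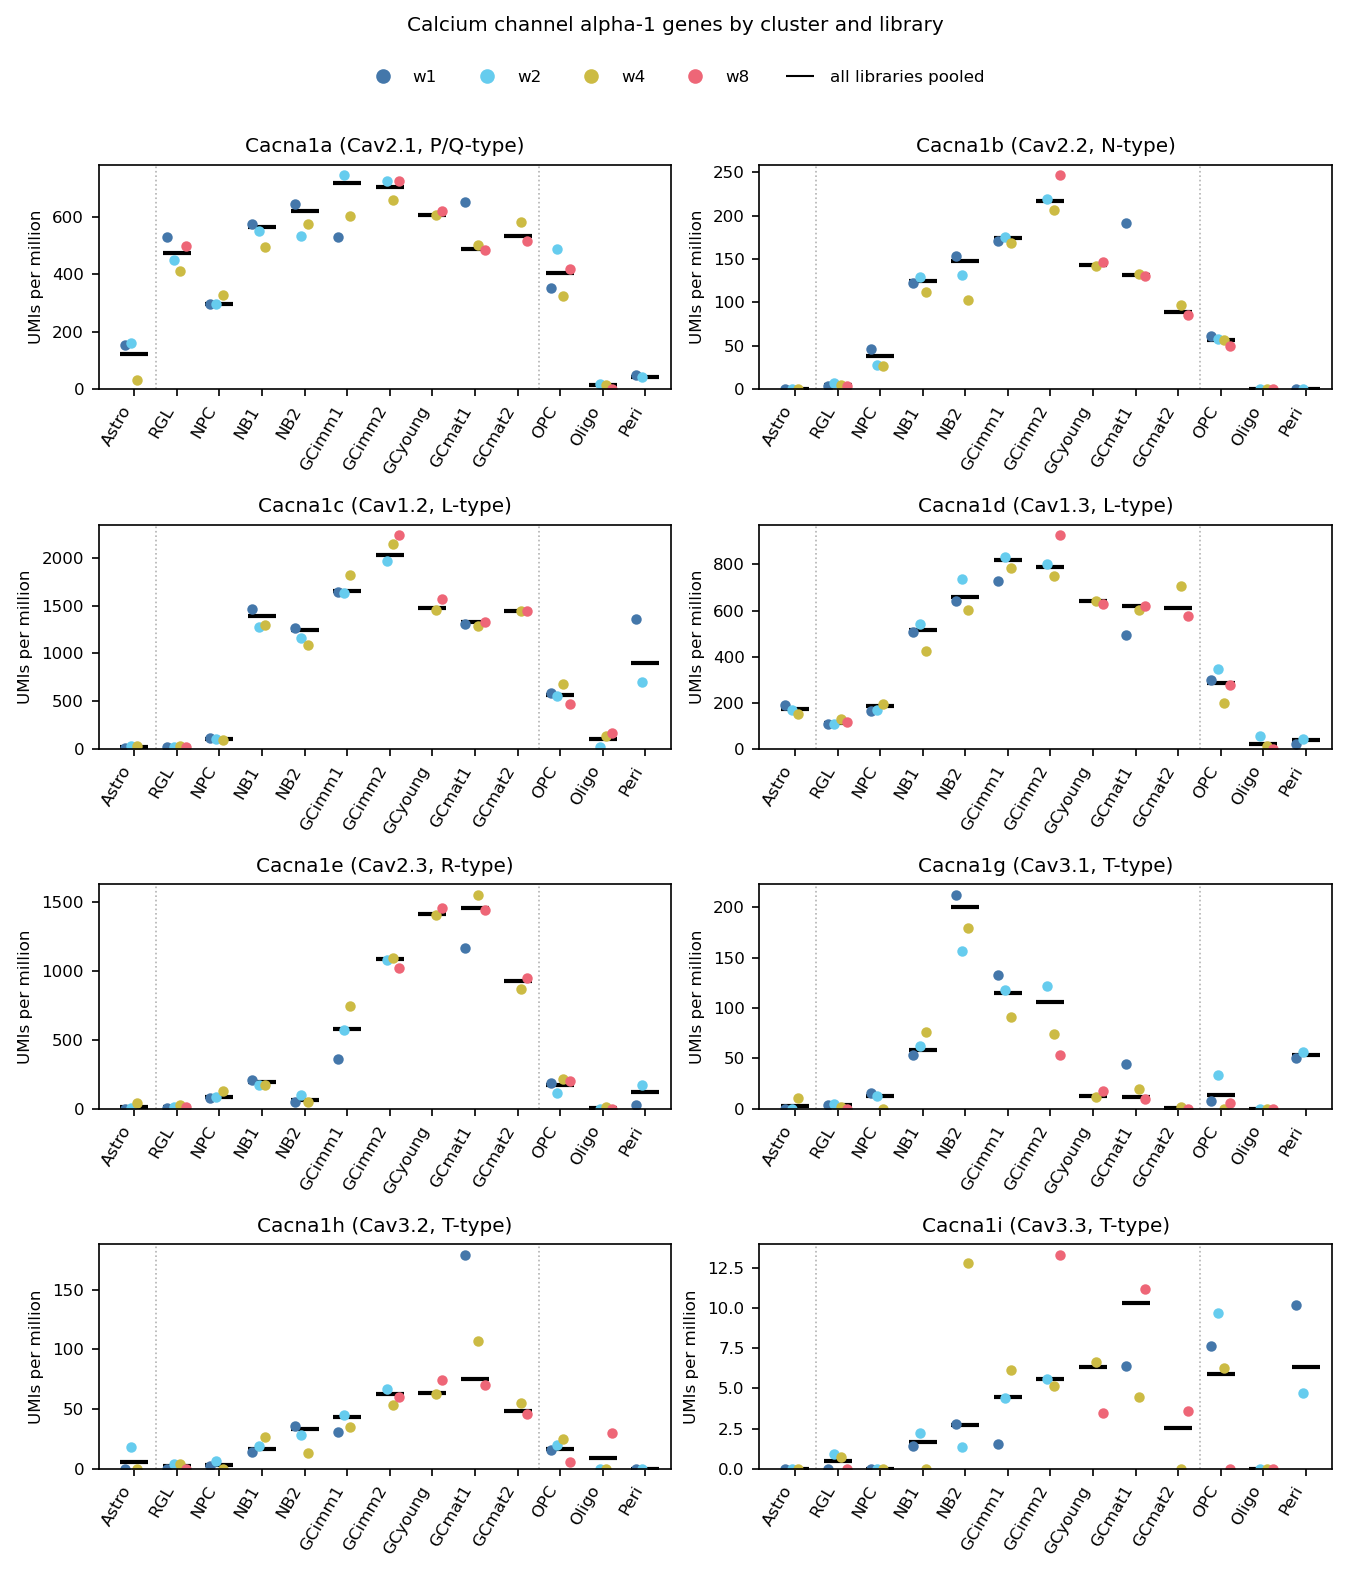
Level of each alpha-1 gene in CPM (y axis, linear from 0, scaled per panel) by cluster (x axis); points are libraries w1 to w8 with at least 10 nuclei in the cluster and black dashes are the pooled level over all libraries. Cacna1c steps up between NPC and NB1 and Cacna1e climbs through the immature stages. In the pooled level Cacna1g is highest in NB2 and Cacna1h in GCmat1.

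Neighbouring stages were compared with edgeR's quasi-likelihood test on UMI sums per library and cluster with at least 10 nuclei, with cluster and library as terms. Calls of change needed 1.5-fold or more together with an adjusted p no higher than 0.05. Because the authors drew the clusters from the expression of the same nuclei, these p-values are not independent of the clustering, and the libraries are the only replicates.

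The passage from NPC to NB1 moved most of the family. Of the 8 genes, 7 rose and none fell, where 29.3% of 13513 tested genes were called (14.7% higher and 14.6% lower), and the median log2 change was 2.22 for the family against 0.06 for all genes. In the step before it, RGL to NPC, 3 genes rose and 1 fell, with 29.5% of all genes called (13.7% higher and 15.9% lower). From NB1 to GCimm1, 5 rose and none fell, with 12.5% called over all genes (7.76% higher and 4.75% lower). Later steps moved fewer members, namely 2 of 8, both higher, from GCimm1 to GCimm2, where 9.43% of all genes were called (6.52% higher and 2.91% lower). From GCimm2 to GCyoung 1 rose and 1 fell, where 18.9% of all genes were called (9.27% higher and 9.62% lower). For that step the log2 ratios of CPM within w4 and w8 were -0.54 and -0.75 for Cacna1b and -0.56 and -0.51 for Cacna1c. They were -0.22 and -0.56 for Cacna1d, -2.64 and -1.56 for Cacna1g and 0.36 and 0.51 for Cacna1e. All of these were beyond counting error. Cacna1a was lower beyond it in w4 only, and Cacna1h, which had the called rise, and Cacna1i were within it. Between GCyoung and GCmat1 the edgeR test called 0 of the 8, where it called 3.85% of all genes (1.60% higher and 2.25% lower), and DESeq2 also called 0. The 1 member with an unadjusted p under 0.05 there was Cacna1h (edgeR log2 change 0.51 ± 0.19, adjusted p = 0.152). It was called without w8 (0.85), a fit that leaves GCyoung with w4 only. Its log2 ratio of CPM was 0.77 within w4, beyond counting error, and -0.08 within w8, not beyond it.

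**Figure D2:**
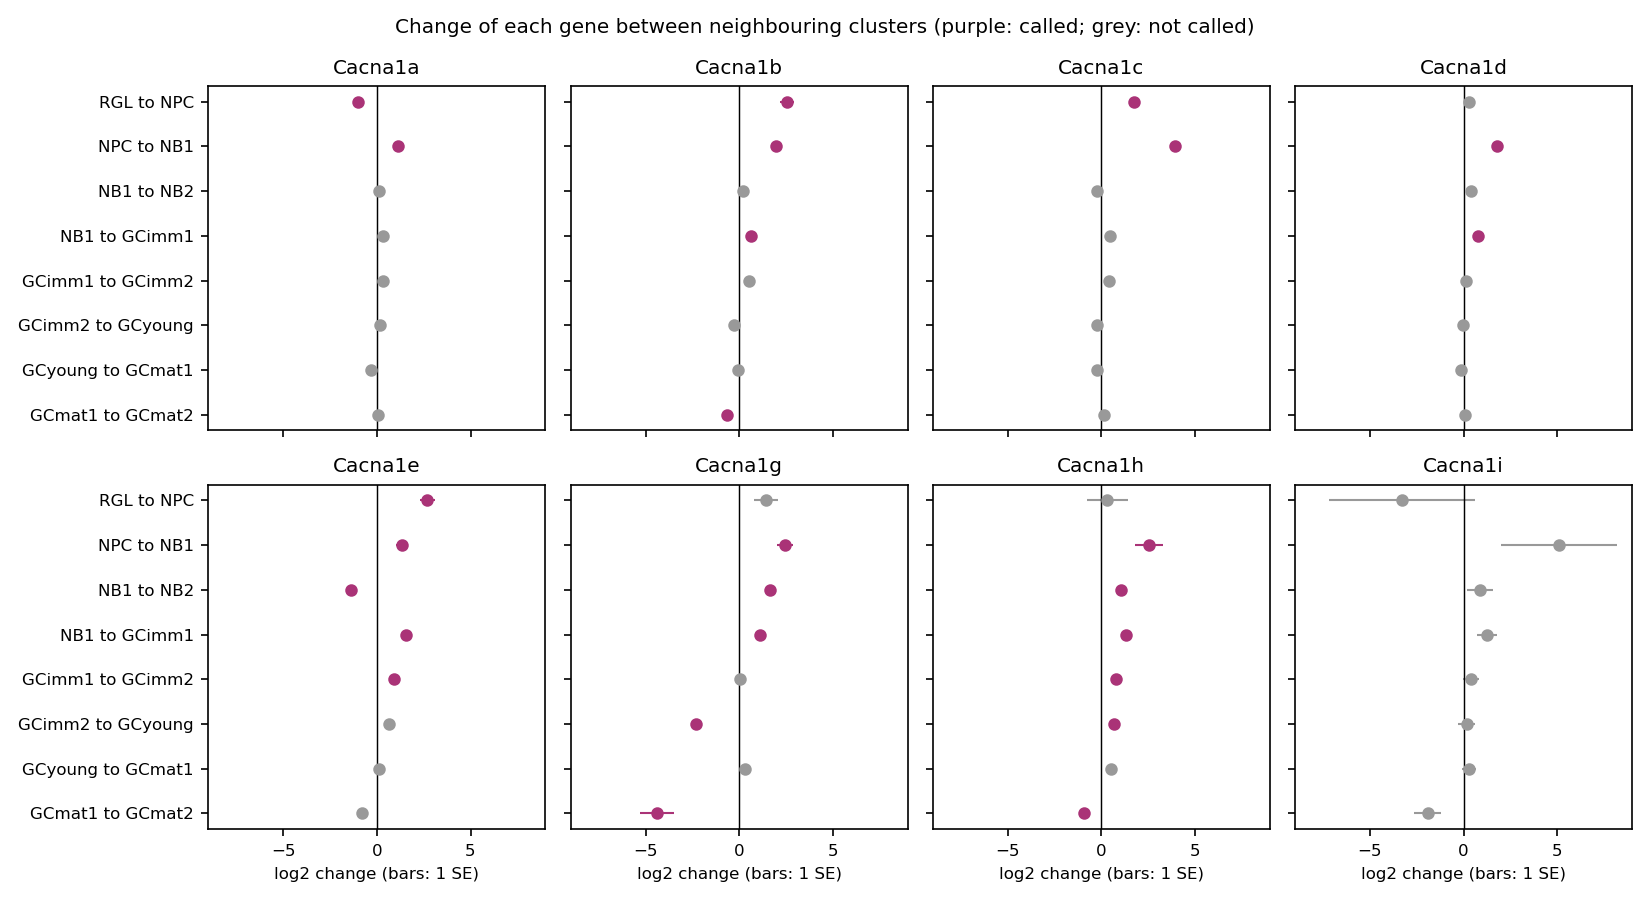
Log2 change (x axis) of each alpha-1 gene in 8 comparisons between neighbouring clusters (rows), from the edgeR fit. Bars are 1 approximate standard error, purple points were called and grey points were not. The calls crowd in the row for NPC to NB1, and the widest bar is that of Cacna1i from RGL to NPC.

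Among the L-type genes, Cacna1c had the largest called rise of the family between neighbouring stages of the trajectory. It was at 23.0, 26.3, 29.4 and 22.3 CPM in RGL of w1, w2, w4 and w8, and at 112, 102 and 91.7 in NPC of w1, w2 and w4. In NB1 it reached 1464, 1279 and 1302. The 3 stages do not overlap, and within each week the NB1 to NPC ratio was 3.71, 3.65 and 3.83 on the log2 scale (w1, w2 and w4). The edgeR log2 change was 1.75 ± 0.28 (SE) from RGL to NPC (adjusted p = 1.49e-06) and 3.92 ± 0.25 from NPC to NB1 (adjusted p = 1.59e-18). After NB1 the level moved little by comparison. It was 1964, 2146 and 2238 in GCimm2 of w2, w4 and w8 and 1306, 1289 and 1331 in GCmat1 of w1, w4 and w8, and none of the later steps passed the test for Cacna1c. The step from NB1 to GCimm1 (0.46 ± 0.19, adjusted p = 0.106) was upward in all 3 weeks and was called without w1 (0.59, adjusted p = 0.0232). In the order of mean levels GCimm2 stood above GCimm1 and GCimm1 above GCyoung with no overlap of libraries, whereas GCmat2 and NB1 overlapped.

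Cacna1d was already present in Astro and RGL. Its level was 192, 169 and 152 CPM in Astro of w1, w2 and w4, and 107, 109, 130 and 118 in RGL of w1 to w8. The difference between Astro and RGL, -0.60 ± 0.28 on the log2 scale, missed the edgeR threshold (adjusted p = 0.194), and passed it with RLE size factors (-0.80, adjusted p = 0.0192) and with DESeq2 (-0.81, adjusted p = 0.00641). It rose from 166, 169 and 197 in NPC to 507, 544 and 423 in NB1 (w1, w2 and w4), a log2 change of 1.78 ± 0.22 (edgeR adjusted p = 3.54e-09). It rose again to 728, 830 and 784 in GCimm1 of the same weeks, by 0.78 ± 0.18 (adjusted p = 0.00113). That second call was lost without w2 (0.79, adjusted p = 0.0514) or without w4 (0.67, adjusted p = 0.0836). From GCimm1 on, Cacna1d lay between 493 and 926 in every library with at least 10 nuclei, and no step passed the test.

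Of the Cav2 genes, Cacna1a was the one with a high level in stem cells. RGL held 529, 449, 413 and 497 CPM in w1, w2, w4 and w8, where Astro held 153, 160 and 32.5 in w1, w2 and w4. Cacna1a was the 1 member called from Astro to RGL, with a log2 change of 1.99 ± 0.28 (edgeR adjusted p = 2.66e-07), where 9.58% of all genes were called (4.77% higher and 4.82% lower) and the median of all genes moved by 0.27. With RLE size factors that median shift was 0.07. Per kilobase of span, the RGL level of Cacna1a was 1.88 CPM, and the next member, Cacna1d, was at 0.25. The gene then fell in NPC, to 297, 296 and 328 in w1, w2 and w4, by 1.00 ± 0.21 on the log2 scale (adjusted p = 0.000135). NPC libraries all lay below the RGL libraries. It rose to 575, 552 and 495 in NB1, by 1.12 ± 0.21 (edgeR adjusted p = 2.92e-05), and the later steps did not pass the test. Within w1 and w2 both the fall into NPC and the rise out of it exceeded counting error. In w4, with 25 NPC UMIs of Cacna1a, the fall (log2 ratio -0.33, exact 95% interval -0.97 to 0.24) and the rise (0.60, interval -0.0042 to 1.25) were within it.

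Cacna1b, the N-type gene, was at or near 0 in astrocytes, oligodendrocytes and RGL and rose in steps. No UMI of it was counted in Astro, where a count of 0 allows up to 8.95 CPM over the pooled libraries. RGL had 3.48, 7.05, 5.15 and 3.19, NPC had 46.1, 27.7 and 26.2 and NB1 had 123, 129 and 112. None of these 3 stages overlapped. The NPC value of w4 rests on 2 UMIs (exact 95% Poisson interval 3.17 to 94.7), and within w4 the RGL to NPC ratio was within counting error. The edgeR log2 change was 2.55 ± 0.39 from RGL to NPC (adjusted p = 4.09e-07) and 1.98 ± 0.25 from NPC to NB1 (adjusted p = 6.07e-09). The first of these was lost when every nucleus was thinned to 2000 UMIs (1.00, adjusted p = 0.243). GCimm1 had 171, 175 and 168, a further rise of 0.62 ± 0.15 (adjusted p = 0.00124) that was lost without w2 (adjusted p = 0.0583), without w4 (0.0506) or after thinning, where it was under the fold threshold (0.53). GCimm2 was highest, with 220, 207 and 246 in w2, w4 and w8, and overlapped no other cluster. The step from GCimm1 to GCimm2, 0.53 on the log2 scale, was under the fold threshold, and was called after thinning (0.62, adjusted p = 0.00205).

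Cacna1e, the R-type gene, rose in several steps up to GCimm2, with a lower level in NB2. It was at 3.04, 12.2, 25.8 and 12.7 CPM in RGL (w1 to w8) and at 80.2, 83.2 and 131 in NPC (w1, w2 and w4), a log2 change of 2.69 ± 0.39 (edgeR adjusted p = 1.49e-07). NB1 had 207, 171 and 175, higher by 1.32 ± 0.31 (adjusted p = 0.000612). The gene was lower in NB2 than in NB1 in each of the 3 weeks, at 52.2, 98.3 and 51.2 (the last from 4 UMIs). That change was -1.36 ± 0.28 (adjusted p = 0.000787), and it was lost without w1 (-0.90, adjusted p = 0.215). From NB1 to NB2, 2 members rose and 1 fell, where 2.94% of all genes were called (1.81% higher and 1.13% lower). GCimm1 then had 363, 570 and 748 in w1, w2 and w4, a rise over NB1 of 1.58 ± 0.24 (adjusted p = 7.06e-07). GCimm2 had 1080, 1097 and 1019 in w2, w4 and w8, a rise of 0.90 ± 0.24 (adjusted p = 0.00586) that was lost without w2 (0.74, adjusted p = 0.358) and with DESeq2 (0.96, adjusted p = 0.0807). GCyoung had 1406 and 1456 in w4 and w8. That step, 0.64 ± 0.26 (adjusted p = 0.0778), missed the threshold, was upward within both weeks and was called without w1 (0.67, adjusted p = 0.00736) and with no filter (0.62, adjusted p = 0.0285). GCmat1 had 1165, 1550 and 1445 in w1, w4 and w8. From NB1 to GCmat1 the log2 change was 3.205 ± 0.260 (edgeR adjusted p = 2.05e-15). Per kilobase of span, Cacna1e stood at 0.39 CPM in NB1, below the 2.28 of Cacna1c and 2.24 of Cacna1a, and at 2.95 in GCmat1, above their 2.17 and 1.94.

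The T-type genes followed different courses. Cacna1g was nearly absent from RGL, with 3.91, 5.17, 2.21 and 0 CPM in w1, w2, w4 and w8. It had 53.9, 62.4 and 76.2 in NB1 of w1, w2 and w4 and 212, 157 and 179 in NB2. The NB2 libraries all lay above those of every other cluster. The gene rose from NPC to NB1 by 2.45 ± 0.41 on the log2 scale (edgeR adjusted p = 3.45e-06). The rise from NB1 to NB2 was 1.65 ± 0.19 on the log2 scale (edgeR adjusted p = 5.79e-09) and remained called in each alternative fit. GCimm1 was also above NB1, by 1.11 ± 0.18 (edgeR adjusted p = 3.39e-06), a step that DESeq2 did not call (0.98, adjusted p = 0.081). GCimm2 still held 122, 74.2 and 53.3 in w2, w4 and w8. In GCyoung the level was 11.9 in w4 and 18.1 in w8, below every GCimm2 library, a log2 change of -2.30 ± 0.26 (adjusted p = 3.44e-10). Without w4, which holds 1979 of the GCyoung nuclei, the value was -1.06 (adjusted p = 0.423). GCmat1 had 44.8, 20.0 and 10.1 in w1, w4 and w8, of which the first rests on 17 nuclei and 7 UMIs. Against NB1 the edgeR change in GCmat1 was -0.80 ± 0.27 (adjusted p = 0.0149), and -1.45 with no library term. It lost its call without w4 (-0.29), without w8 (-0.59), with DESeq2 (-0.89) and after thinning (-0.28).

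Cacna1h, unlike Cacna1g, had its highest pooled level in GCmat1. It was at 0, 3.76, 3.68 and 0 CPM in RGL and at 14.3, 18.6 and 26.9 in NB1 of w1, w2 and w4. NB2 of these weeks had 35.5, 27.9 and 12.8, the last from 1 UMI. Its call as higher than NB1 (1.03 ± 0.26, edgeR adjusted p = 0.0123) was lost without w1 (0.40), without w2, with no library term and with DESeq2. GCimm1 had 30.5, 44.95 and 35.1 in the same weeks, a rise of 1.33 ± 0.23 on the log2 scale (edgeR adjusted p = 1.03e-05) that DESeq2 did not call (1.15, adjusted p = 0.0696). GCimm2 had 66.6, 53.1 and 59.96 in w2, w4 and w8, the last from 9 UMIs, above every GCimm1 library. That step, 0.80 ± 0.20 (adjusted p = 0.00366), was lost without w2, with no library term, with DESeq2 and after thinning. GCyoung had 63.0 and 74.6 in w4 and w8, and GCmat1 179, 107 and 70.5 in w1, w4 and w8. The GCmat1 value of w1 rests on 17 nuclei and 28 UMIs. Within w4 GCmat1 was above GCyoung (log2 ratio 0.77), and within w8 the ratio was -0.08, within counting error. GCyoung overlapped both GCimm2 and GCmat1, which did not overlap each other. From NB1 to GCmat1 the change was 3.298 ± 0.256 (edgeR adjusted p = 4.32e-16), called in each alternative fit, and no GCmat1 library overlapped NB1. The smaller step from GCimm2 to GCyoung, 0.66 ± 0.23 (edgeR adjusted p = 0.0295), was lost in 9 alternative fits, among them those without w2, w4 or w8. Within w4 and w8 the log2 ratios of CPM for that step were 0.25 and 0.32, both within counting error. Between NPC, with 3 UMIs in all, and NB1 the pooled ratio was 5.00 (exact 95% interval 1.68 to 24.5, counting error only). The edgeR log2 change of that step was 2.56 ± 0.74 (adjusted p = 0.00548), and its call was lost without w1 (2.26, adjusted p = 0.0574).

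Cacna1i was rare throughout. Its pooled level was 0.492 CPM in RGL, 1.65 in NB1, 6.35 in GCyoung and 10.3 in GCmat1. GCmat1 of w1, w4 and w8 had 6.40, 4.44 and 11.2, from 1, 16 and 284 UMIs. The change from NB1 to GCmat1 was 2.12 ± 0.64 on the log2 scale (edgeR adjusted p = 0.00557), and the call was lost without w2, without w4, without w8 and with DESeq2. Over that long interval 5 of the 8 members rose and 1 fell, where 40.1% of all genes were called (20.2% higher and 19.9% lower). NB1 and GCmat1 share only w1, with 17 GCmat1 nuclei, and w4, so the fitted change rests on the library term. Cacna1b was higher by 0.81 ± 0.17 (edgeR adjusted p = 0.000108) and Cacna1d by 0.74 ± 0.20 (adjusted p = 0.00178). Cacna1d was not called without w4 (0.38, adjusted p = 0.41). Within w1 and w4 the log2 ratios of CPM were 0.64 and 0.25 for Cacna1b, that of w4 within counting error. For Cacna1d they were -0.04 and 0.51, that of w1 within counting error. The values of Cacna1a (0.52, adjusted p = 0.0302, under the fold threshold) and Cacna1c (0.40, adjusted p = 0.11 in the edgeR fit) were not called. Without w1 both were called, Cacna1a at 0.63 (adjusted p = 0.0092) and Cacna1c at 0.67 (0.00559). With at least 20 nuclei per sum Cacna1a was called (0.60, adjusted p = 0.00909). The log2 ratios of CPM within w1 and w4 were 0.18 and 0.02 for Cacna1a and -0.16 and -0.01 for Cacna1c. All of these were within counting error. For Cacna1a to Cacna1d the fitted values exceed the ratios in both libraries, and the cause was not tested.

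Cacna1b, Cacna1g and Cacna1h were lower in GCmat2 than in GCmat1. Of the 8 members, 3 were lower in GCmat2 and none higher, where 7.30% of all genes were called (3.01% higher and 4.28% lower) and the median of all genes moved by -0.14. Cacna1g had 1 UMI in GCmat2 against 334 in GCmat1, a pooled ratio of 17.9 in favour of GCmat1 (exact 95% interval 3.18 to 707). Cacna1h was at 55.3 and 46.0 in GCmat2 of w4 and w8, below all GCmat1 libraries, with a log2 change of -0.93 ± 0.25 (edgeR adjusted p = 0.0108). Cacna1b was at 97.3 and 85.8, also below them, with -0.65 ± 0.19 (adjusted p = 0.0242). All 3 calls were lost without w8 and after thinning, those of Cacna1b and Cacna1h also without w4 and with DESeq2, and that of Cacna1b also without w2, with no library term and with RLE size factors. Cacna1e, with 866 and 949 in GCmat2, lay below all GCmat1 libraries and missed the threshold (-0.79 ± 0.26, adjusted p = 0.0581). It was called in 5 alternative fits, namely without w1 (-0.84, adjusted p = 0.00282), with RLE size factors (-0.74, 0.0406), with no filter (-0.84, 0.00276), with at least 20 nuclei per sum (-0.79, 0.0265) and after thinning (-0.69, 0.0407), where it was the 1 member called.

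The authors' pseudo-time, an ordering of nuclei from RGL to GCmat1, was read in finer steps. In bins of 2 units with at least 20 nuclei, Cacna1c was at 317 CPM at 6 to 8, rose from 141 at 8 to 10 (exact 95% Poisson interval 118 to 166) to 1073 at 10 to 12 and peaked at 2034 at 20 to 22. Cacna1e dipped from 197 at 10 to 12 to 107 at 12 to 14 before rising to 1479 at 28 to 30. Cacna1g had its highest bin, 126, at 18 to 20, where GCimm2 was the main cluster, and NB2 shared its bins with the more numerous NB1. It was at 25.9 at 24 to 26 and 6.35 at 26 to 28. Cacna1h was highest at 28 to 30, at 95.4, and was at 61.8 at 30 to 32. Cacna1a was lowest at 8 to 10, at 265, where NPC was the main cluster. The pseudo-time was itself derived from expression, and bins pool the libraries, so no test was made.

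**Figure D3:**
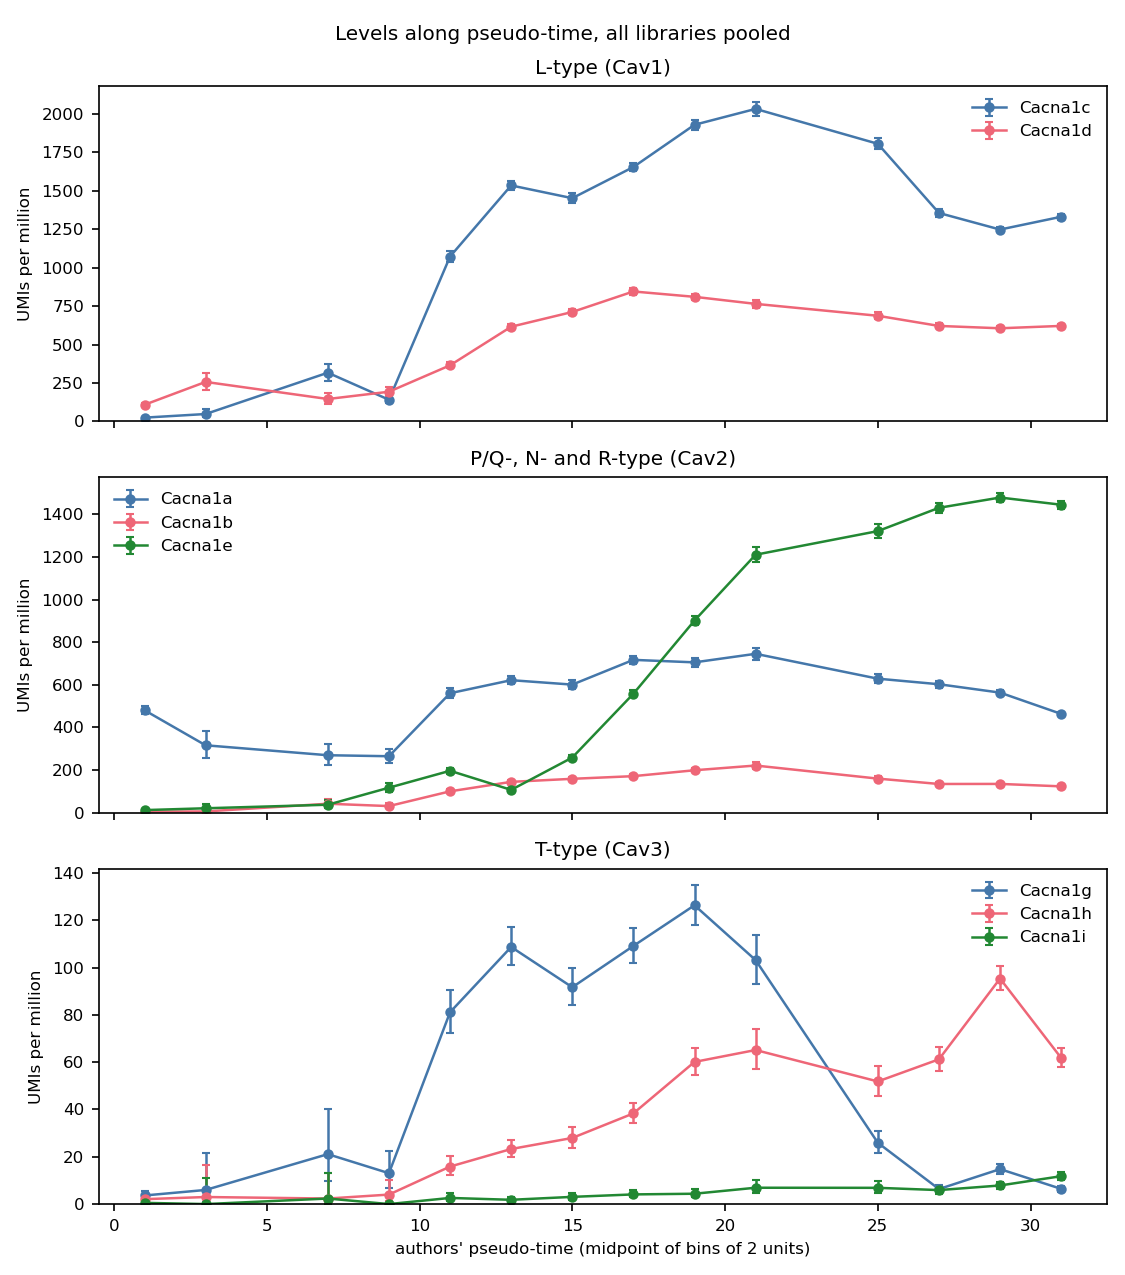
Level in CPM (y axis, linear from 0) against the authors' pseudo-time (x axis, bins of 2 units with at least 20 nuclei, all libraries pooled); bars are exact 95% Poisson intervals for counting error. Cacna1g drops from 126 at 18 to 20 to 6.35 at 26 to 28, and Cacna1e is still rising when Cacna1c has passed its peak at 20 to 22.

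The makeup of the family's UMIs changed with stage. This share is not corrected for gene length, so only its change between clusters is described. Cacna1a held 74.5% of the family's UMIs in RGL, 40.8% in NPC, 19.7% in NB1 and 11.9% in GCmat1. Cacna1c held 4.02% in RGL and 48.5% in NB1. Cacna1e held 2.07% in NB2 and 35.4% in GCmat1. By class, the T-type genes were at 7.96% in NB2, the highest share of any trajectory cluster, and 2.37% in GCmat1.

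**Figure D4:**
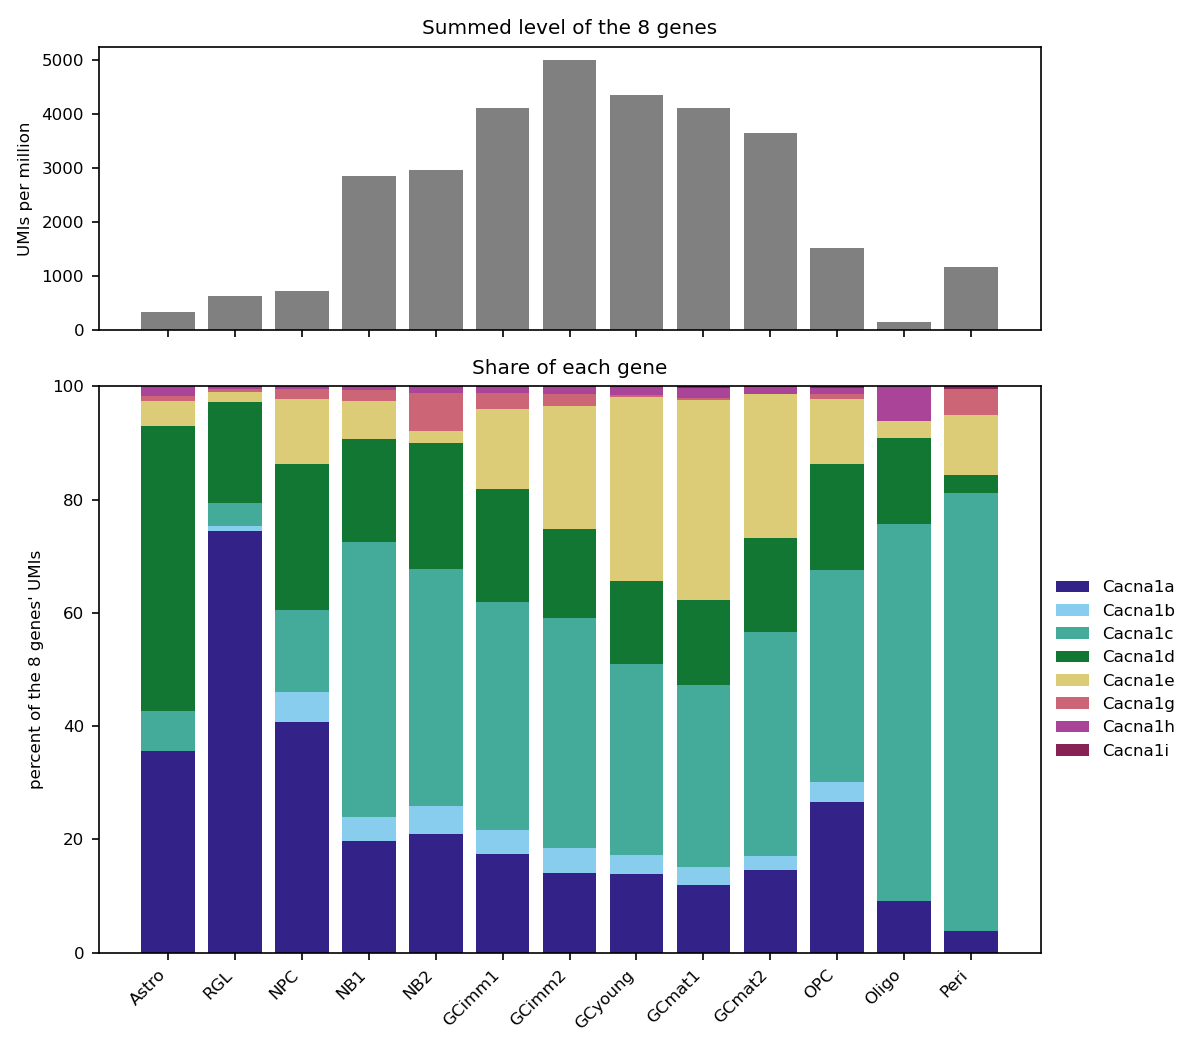
Top, summed level of the 8 genes in CPM by cluster, libraries pooled; bottom, percent of those UMIs from each gene. The sum climbs from 730 in NPC to 2862 in NB1, and the Cacna1a share shrinks from 74.5% in RGL to 11.9% in GCmat1.

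Single nuclei came to hold more members at once. With each nucleus thinned to 2000 UMIs (141 of 14367 nuclei were shallower and left out), the mean number of alpha-1 genes with a UMI was 0.84 in RGL, 1.08 in NPC, 2.64 in NB1, 3.99 in GCimm2 and 3.56 in GCmat1. No UMI of any member was found in 32.7% of RGL nuclei, 30.6% of NPC and 2.78% of NB1. At equal depth Cacna1c was seen in 18.0% of NPC nuclei and 85.4% of NB1 nuclei (27.0% and 92.2% unthinned, at median depths of 4278 and 4058 UMIs). In oligodendrocytes, the cluster with the lowest summed level, the thinned share was 13.3% (33.3% unthinned, median 4801 UMIs). The Cacna1e share was 26.3% in NB1, 10.5% in NB2 and 93.1% in GCmat1, against 0 of 45 oligodendrocyte nuclei after thinning, which at the floor of 3 counts allows up to 6.67% of nuclei with a UMI. Unthinned, these shares were 41.7%, 20.9% and 99.9%, and 2.22% (1 of 45) in oligodendrocytes.

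Within a cluster, the levels of several members varied between weeks. Each week is 1 library, so week and library cannot be told apart and no test was possible. Cacna1e in GCimm1 was at 363 (exact 95% Poisson interval 319 to 413) in w1, 570 in w2 and 748 (707 to 792) in w4. Cacna1g in GCimm2 was at 122 (113 to 132) in w2, 74.2 (63.5 to 86.2) in w4 and 53.3 (23.0 to 105, from 8 UMIs) in w8. The intervals of w4 and w8 overlap. Cacna1h in GCmat1 was at 179 (119 to 259, from 28 UMIs of 17 nuclei) in w1, 107 in w4 and 70.5 in w8. The paper left GCmat1 nuclei with strong ventral gene expression out of its pseudo-time analysis. Ventral genes were not checked here. In GCmat1 of w8, 216 nuclei carry no pseudo-time. They had less Cacna1a, 305 (283 to 328), than the 2711 nuclei with one, 505 (496 to 514), and more Cacna1c, 1637 (1586 to 1689) against 1299 (1284 to 1313). The Cacna1e intervals overlapped, at 1423 (1375 to 1471) and 1447 (1432 to 1463). These values come from a single library.

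In the oligodendrocyte lineage the family was high in precursors and low in mature cells. OPC held 591, 555, 676 and 473 CPM of Cacna1c in w1, w2, w4 and w8, 353, 486, 326 and 418 of Cacna1a, and 299, 345, 200 and 278 of Cacna1d. From RGL to OPC, 6 of 7 tested members rose and none fell, where 29.7% of 11548 genes were called (14.5% higher and 15.2% lower) and the median of all genes moved by -0.14. Cacna1c rose by 4.61 ± 0.23 on the log2 scale (edgeR adjusted p = 2.38e-24), Cacna1b by 3.63 ± 0.36 (3.26e-12) and Cacna1e by 3.94 ± 0.35 (3.28e-14). Cacna1a did not pass (-0.10 ± 0.18, adjusted p = 0.735), and the call of Cacna1g was lost without w2 (0.83, adjusted p = 0.742), with no library term (1.96, 0.0669) and after thinning (2.24, 0.185).

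From OPC to Oligo, 5 of 7 tested members fell and none rose, where 20.0% of all genes were called (6.70% higher and 13.2% lower) and the median of all genes moved by -0.43. Cacna1c was at 18.8, 131 and 165 in Oligo of w2, w4 and w8, below every OPC library, a change of -2.59 ± 0.34 (edgeR adjusted p = 8.93e-09). Cacna1d changed by -4.03 ± 0.51 (adjusted p = 5.64e-09). Oligo held 3 UMIs of Cacna1a, a pooled ratio of 29.6 in favour of OPC (exact 95% interval 10.02 to 144), and 1 of Cacna1e, a ratio of 38.4 (6.76 to 1529). Cacna1b had 38 UMIs in OPC and none in Oligo, at least 4.12-fold lower over the pooled libraries with Oligo set at the floor of 3 counts. Its call was lost after thinning (adjusted p = 0.122), and within each of w2, w4 and w8 the difference was within counting error. Only 45 oligodendrocyte nuclei were present.

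GCmat1 was above OPC for 6 of 7 tested members and below it for none, where 34.9% of all genes were called (19.1% higher and 15.7% lower) and the median of all genes moved by 0.17. The largest of these was Cacna1e, by 3.24 ± 0.27 (edgeR adjusted p = 1.69e-15). That of Cacna1a, 0.73 ± 0.19 (adjusted p = 0.00169), fell under the fold threshold with RLE size factors or DESeq2 (0.54 with each). The cluster labelled Peri had 1363 and 702 CPM of Cacna1c in w1 and w2. Of the pericyte markers looked for there, Tbx18 was at 313 and Pdgfrb at 101, but Rgs5 and Higd1b were at or near 0. Cped1 (2322), Ranbp3l (2009) and Slc6a13 (648), known from leptomeningeal cells, were high in it. The paper uses Tbx18 and Slc6a13 as its pericyte markers for this cluster. It is called here only by its label.

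In L-type, P/Q-type, N-type and R-type channels, auxiliary subunits set how alpha-1 proteins reach the membrane and how they gate. Beta subunits bind the pore of these channels from the cytoplasm, and all 4 genes were tested. From NPC to NB1, 2 of 4 rose and 1 fell, where 29.3% of all genes were called (14.7% higher and 14.6% lower). Cacnb4 went from 28.1, 24.6 and 0 CPM in NPC of w1, w2 and w4 to 493, 534 and 406 in NB1, a log2 change of 4.59 ± 0.31 (edgeR adjusted p = 8.89e-18). Cacnb2 went the other way, from 751, 601 and 695 to 283, 232 and 262, by -1.14 ± 0.22 (adjusted p = 5.21e-05). It then rose at each of the steps from NB1 to GCimm1, to GCimm2 and to GCyoung, where w4 and w8 had 1399 and 1401. From NB1 to GCmat1 it changed by 2.75 ± 0.23 (adjusted p = 7.21e-15) and was the 1 of 4 beta genes called, where 40.1% of all genes were called. Cacnb1 lay between 9.10 and 26.7 in the pooled level of all 13 clusters and was called in no comparison. Cacnb3 lay between 2.62 and 33.4 and rose from RGL to NPC (1.76 ± 0.67), from NPC to NB1 (1.36 ± 0.46) and from RGL to OPC (2.17 ± 0.80).

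The alpha2delta subunits are extracellular proteins that promote channel trafficking, and Cachd1 encodes a related protein. From NB1 to GCmat1, 3 of these 5 genes rose and 2 fell, where 40.1% of all genes were called (20.2% higher and 19.9% lower), among them Cachd1 with a change of -4.59 ± 0.27 on the log2 scale (edgeR adjusted p = 1.22e-20). Its level was 192, 174 and 164 CPM in NB1 and 0, 4.16 and 5.37 in GCmat1. Cacna2d1 stood at 467, 439 and 565 in NB1 of w1, w2 and w4 and at 1089, 791 and 1062 in GCmat1 of w1, w4 and w8, a change of 1.31 ± 0.21 (adjusted p = 8.18e-07). In Oligo, Cacna2d4 was at 68.3 CPM in the pooled level, in OPC at 0 and in the next highest cluster, Astro, at 14.9.

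**Figure D5:**
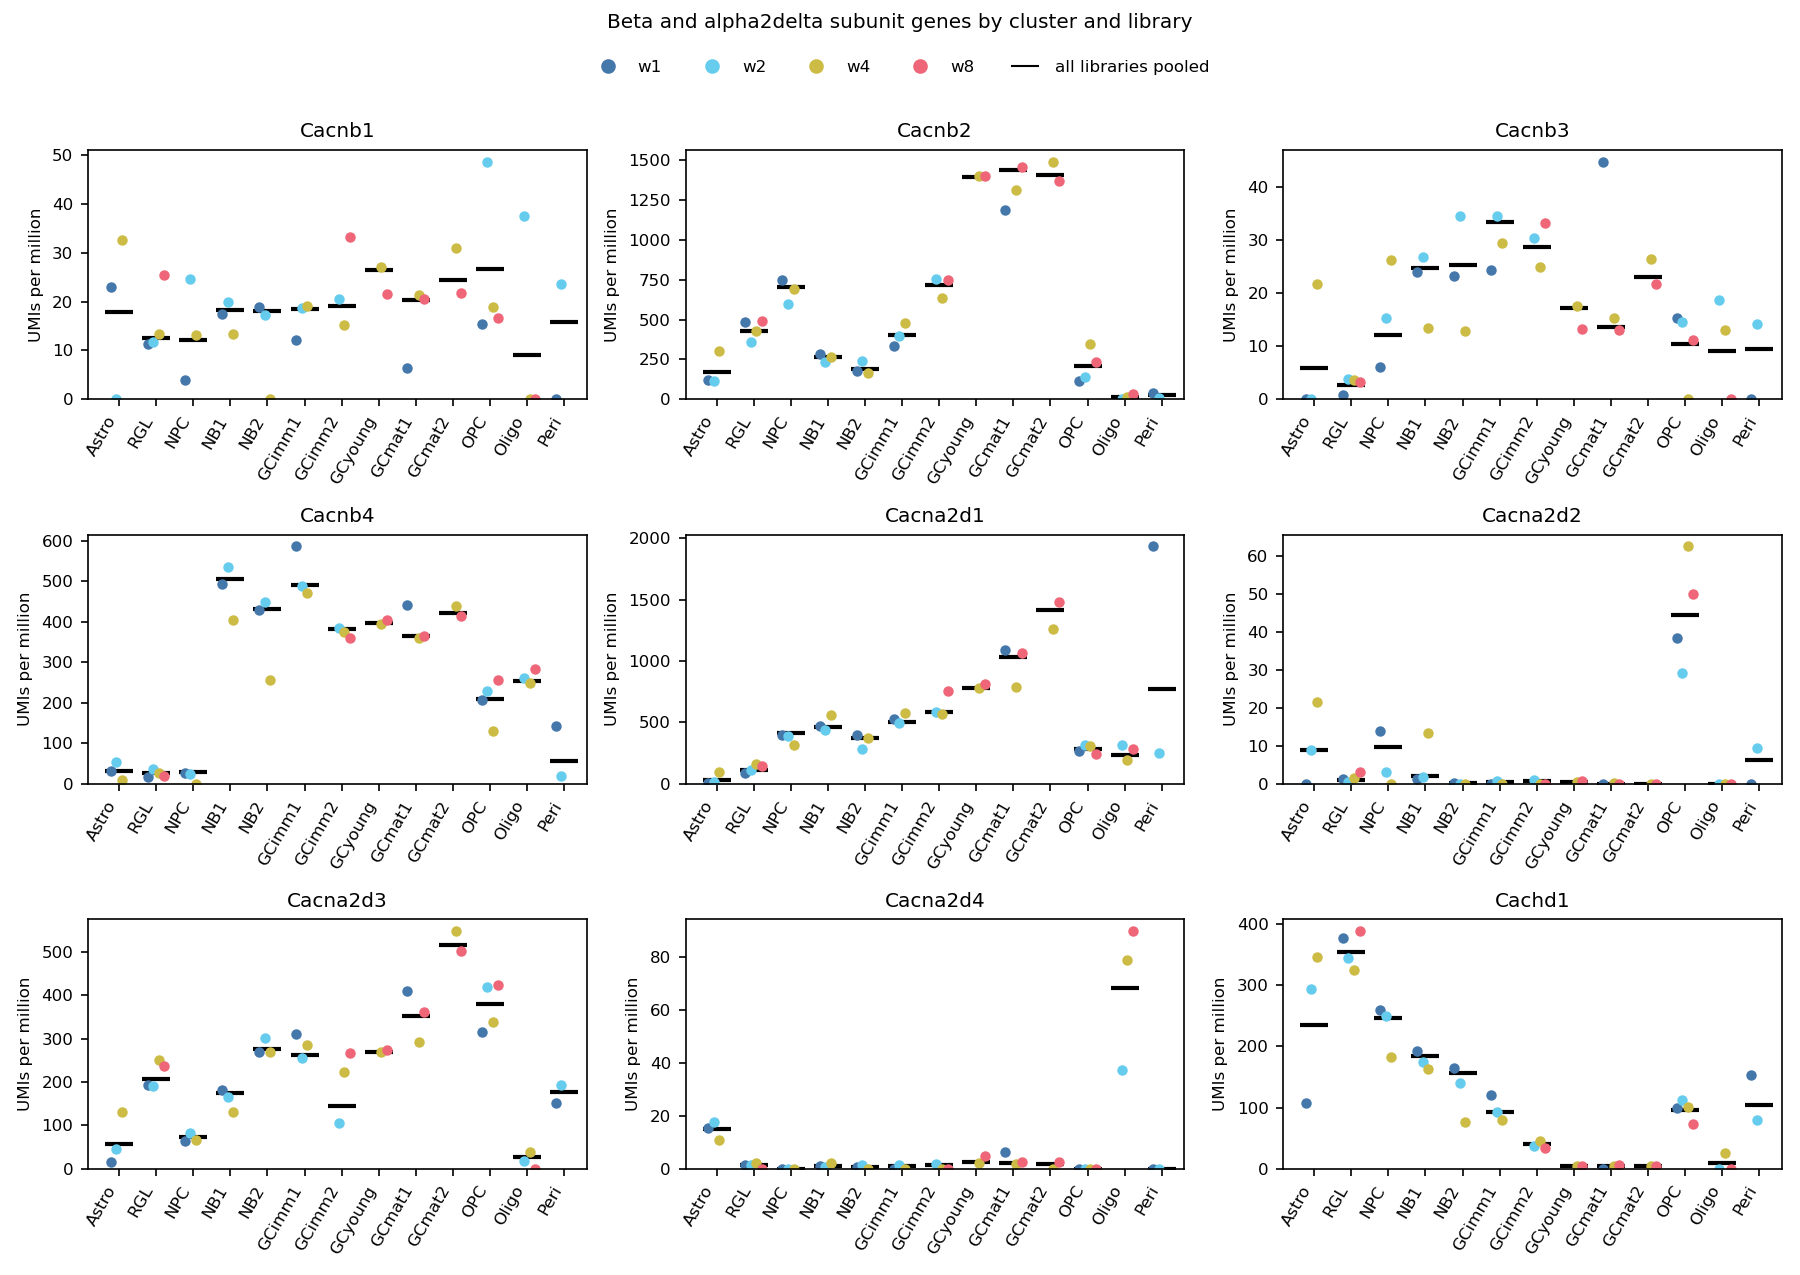
Level in CPM (y axis, linear from 0, scaled per panel) of the 4 beta and 5 alpha2delta list genes by cluster (x axis); points are libraries with at least 10 nuclei and black dashes the pooled level. Cacnb4 steps up at NB1 as Cacnb2 steps down, Cacnb2 is above its NPC level in GCyoung, and Cachd1 declines from 355 in RGL to 5.17 in GCmat1.

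Of 8 gamma subunit genes, most of which encode partners of AMPA receptors rather than of calcium channels, 6 were tested. From NB1 to GCmat1, 4 rose and 1 fell, where 40.1% of all genes were called, with Cacng3 at 6.01 ± 0.47 and Cacng4 at -5.31 ± 0.69 on the log2 scale (edgeR adjusted p = 2.73e-15 and 5.91e-09). Cacng4 was high in OPC, at 705 CPM in the pooled level, and 0.137 in GCmat1. Of 14 genes for proteins that bind the channels, 9 were tested, and 4 rose and none fell from NB1 to GCmat1, a share of the list near the 40.1% of all genes called. Rimbp2, whose product ties presynaptic channels to release sites, changed by 7.30 ± 0.34 (adjusted p = 2.57e-24). From NPC to NB1, 4 of the 9 rose and 1 fell, where 29.3% of all genes were called, and Cabp1, a calcium-binding protein of L-type channels, changed by 5.70 ± 0.74 (adjusted p = 1.2e-08). Cacna1s and Cacna1f, the skeletal muscle and retinal L-type genes, did not pass the filter, and no cluster had over 3.21 CPM of either.

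Across the 29 sums of the trajectory and astrocyte clusters, genes among the most like each member were named by Pearson's r of log2 level. They share libraries and clusters with the member, so r is a description. For Cacna1c they were Hecw1 (0.99), Fam155a (0.98) and Ank3 (0.98), for Cacna1d Ntrk3 (0.98), Tmem63c (0.97) and Nrp1 (0.96), and for Cacna1a Gng2 (0.95), Tro (0.93) and Fbxo31 (0.93). Cacna1b was most like Ksr2 (0.98), Svop (0.98) and 5730522E02Rik (0.97), and Cacna1e like Add2 (0.96) and Matk (0.96). Fam155a encodes a protein of the sodium leak channel complex. For the T-type genes they were Asic1 (0.92), Ccdc177 (0.89) and Osbpl5 (0.88) with Cacna1g, Galnt9 (0.94) and Pde4dip (0.94) with Cacna1h, and Pdia5 (0.88), Palm2 (0.85) and Gm15679 (0.85) with Cacna1i. Among the members, Cacna1c and Cacna1d were close (r = 0.96), as were Cacna1b and Cacna1c (r = 0.95), Cacna1b and Cacna1d were less so (r = 0.85), and Cacna1a and Cacna1g were not (r = 0.40).

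The labels of the clusters were checked against marker genes. Aqp4, Grin2c, Glul and Gja1 were highest in Astro, Hopx, Notch2 and Thrsp in RGL (the RGL list's Lpar1 was highest in Peri, at 777 CPM), Eomes, Top2a, Neil3 and Mki67 in NPC, Mog and Mag in Oligo, and Pdgfra, Cspg4 and Prkg2 in OPC. Of the neuroblast list, Dcx, Igfbpl1 and Sox11 were highest in NB1 and Calb2 in NB2. The granule cell markers Prox1 and Rbfox3 were highest in NB1 and NB2. Of 3 mature granule cell markers, Calb1 was highest in GCmat1, Ntng1 in GCmat2 (710 against 391 in GCmat1) and Icam5 in GCyoung (165 against 149). Summed over the 3 interneuron markers, clusters from RGL to GCmat2 held at most 13.1 CPM (NPC). The 3 endothelial markers stood at 50.4 in NPC and at most 7.63 elsewhere from RGL to GCmat2. The 3 CA pyramidal cell markers stood at 31.7 in NPC, 42.1 in NB1 and 46.2 in NB2, mostly Mpped1, and at 2.56 to 7.70 in the other clusters from RGL to GCmat2, and the 3 microglial markers at 27.4 to 53.3 over all of these clusters, with Csf1r at no more than 1.34. Their part in the results was not tested. Kept nuclei numbered 2867, 4243, 3831 and 3426 in w1, w2, w4 and w8, with 13227971 to 28595331 UMIs in all and median depths of 4369 to 7704 UMIs a nucleus, and 1 to 6 cell barcodes of kept nuclei were shared by any pair of libraries.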

How the data were processed

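Single-nucleus RNA-seq of sorted GFP+ nuclei was analysed in 4 libraries of 1 pool of 4 mice each. The authors aligned reads to mm10 with STARsolo 2.7.4a, counted exonic and intronic UMIs without multimapping reads and removed doublets, and deposited UMI counts per nucleus. The authors also deposited a table of log2(count per size factor + 1) for 13353 genes, with each nucleus's cluster and pseudo-time. Cacna1a, Cacna1c and Cacna1d are not in that table, so levels come from the counts, over all UMIs of a nucleus. Of 17046 barcodes, 2679 without a cluster were left out.

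Counts were summed per library and cluster (at least 10 nuclei). edgeR 4.0.16 (TMM, filterByExpr, quasi-likelihood test, Benjamini-Hochberg adjustment over all tested genes) fitted cluster and library terms to 29 sums of the trajectory and astrocytes (13513 genes, 16 residual degrees of freedom) and to 38 sums of 13 clusters (11548 genes, 22). The study's own test takes nuclei as replicates, so sums were used instead. Each SE, printed after ±, is approximate, namely the absolute log2 change over the square root of the quasi-likelihood test's F statistic. Poisson and binomial (Clopper-Pearson) intervals are exact at 95%, with a floor of 3 counts, and cover counting error only. All members are named, with at most the 4 largest called changes of partner genes per comparison and, chosen after their values were seen, further beta and alpha2delta genes. The members and lists were chosen with earlier results of these data known. Alternatives were DESeq2 1.42.0, RLE size factors, no filter, no library term, 20 nuclei per sum, a fold change of 2, all 13 clusters, thinning to 2000 UMIs, each library left out, GCmat1 nuclei with pseudo-time only, levels as means over libraries, levels over the UMIs of the deposited table's genes, and changes as differences of mean deposited log2 expression. A few genes are not reported here, among them some markers and genes like a member in pattern.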

Additional observations from a re-analysis of the deposited data

Results flagged for a closer look

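Cacna1g moved in opposite directions from GCyoung to GCmat1 in the 2 libraries that hold both clusters. The log2 ratio of its level was 0.75 in w4 and -0.85 in w8, and the exact counting intervals of the ratios lie on opposite sides of 0. The difference between the weeks was not tested, since each week is 1 library.

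Barcodes to which the authors gave no cluster also held UMIs of the family. They numbered 410, 373, 1628 and 268 in w1, w2, w4 and w8. The paper excluded a group of 4-week nuclei, proposing that they could come from a single male mouse, potentially an outlier. In all weeks it also removed doublets, nuclei of low quality or with few detected genes, and small groups apart from the rest. Which barcodes were left out for which reason was not resolved here. For w1, w2, w4 and w8 the summed level of the 8 genes in all barcodes without a cluster was 2383, 3162, 3277 and 3769 CPM. The nuclei kept of those libraries had 2471, 3600, 4077 and 4047 CPM.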

How the results depend on the processing

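Of 50 called member changes among 101 tested, 29 stayed called in every alternative fit at the 1.5-fold threshold and 21 were lost in at least 1; none reversed. Among changes that were not called, 35 values of 18 changes had the other sign, and the cause was not tested. Clusters of the same library were compared with library as a term. With the UMIs of the deposited table as denominator, 67 member levels moved by more than the spread between libraries and 37 did not, and the difference of mean deposited log2 expression, which is on another scale, differed by more than 1 SE for 45 member changes and by less for 17, with no called change reversed. The number of members called moved from 1 to 2 with DESeq2 or RLE size factors from Astro to RGL. With DESeq2 it was 3 (5) from NB1 to GCimm1, 0 (2) from GCimm1 to GCimm2, 1 (2) from GCimm2 to GCyoung and 1 (3) from GCmat1 to GCmat2, where parentheses give the main count. With a fold change of at least 2 those 4 counts were 3, 0, 1 and 1, and 3 (6) from NB1 to GCmat1. With no library term they were 1 from GCimm1 to GCimm2 and 1 from GCimm2 to GCyoung. From GCimm2 to GCyoung, RLE size factors, at least 20 nuclei per sum, thinning and all 13 clusters in the fit each gave 1, and from GCmat1 to GCmat2 thinning gave 1. Leaving out each library in turn gave 1 to 3 from NB1 to NB2 (lowest without w1), 3 to 6 from NB1 to GCimm1 (lowest without w2 or w4), 0 to 2 from GCimm1 to GCimm2 (without w2), 0 to 3 from GCimm2 to GCyoung (without w4), 0 to 1 from GCyoung to GCmat1 (highest without w8), 0 to 4 from GCmat1 to GCmat2 (lowest without w8) and 3 to 8 from NB1 to GCmat1 (lowest without w4).

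Over all genes, thinning to 2000 UMIs lowered the called genes from 1295 to 852 (Astro to RGL), 3992 to 2530 (RGL to NPC), 2553 to 1663 (GCimm2 to GCyoung), 520 to 268 (GCyoung to GCmat1), 986 to 473 (GCmat1 to GCmat2), 5423 to 3507 (NB1 to GCmat1), 3433 to 2203 (RGL to OPC), 2304 to 1360 (OPC to Oligo) and 4027 to 2600 (OPC to GCmat1). DESeq2 called 194 against 397 from NB1 to NB2, 813 against 1274 from GCimm1 to GCimm2 and 229 against 520 from GCyoung to GCmat1, and no library term gave 189 from NB1 to NB2. A fold change of 2 gave 1089 against 1691 (NB1 to GCimm1), 752 against 1274 (GCimm1 to GCimm2) and 1655 against 2553 (GCimm2 to GCyoung). Leaving out a library gave at the lowest 813 (Astro to RGL), 2550 against 3964 (NPC to NB1), 102 (NB1 to NB2), 780 (NB1 to GCimm1), 410 (GCimm1 to GCimm2), 487 (GCimm2 to GCyoung), 216 (GCyoung to GCmat1), 412 (GCmat1 to GCmat2) and 3505 (NB1 to GCmat1).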
